A study of Rattus norvegicus with 4 samples.

Results

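Rab proteins are small GTPases of the Ras superfamily that mark the membranes of the secretory and endocytic pathways. Transcripts of the Rab genes were followed here on rat expression arrays of colon mucosa. Members were taken by name: every non-control probe whose array gene name is Rab followed by a number and at most 1 letter, once an ending such as _predicted is removed. The rule found 75 probes of 47 gene names, among 41012 probes with 35561 names in all.

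The study set inflamed colon mucosa with resveratrol against inflamed mucosa without it, in F344 rats. Both sides were given 5% DSS (dextran sodium sulphate, a polymer that injures the colon lining) for 5 days, so no sample here is free of colitis. Before DSS, treated rats had 20 days of resveratrol, a polyphenol of grapes, at a daily 1 mg/kg, while controls ate standard chow. On each of 4 two-colour arrays, Cy5 held RNA of 2 of the 8 resveratrol rats and Cy3 a pool of control rats, so every value is a log2 ratio of Cy5 over Cy3, positive where resveratrol was higher. The pool counts as 1 control sample whose own spread is not measured, the sources used here do not give the number of rats in it, and with no array of exchanged dyes a probe's dye effect and the difference between the groups cannot be told apart.

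A Rab cycles between a GTP-bound form on a membrane, where it recruits motors, tethers and fusion factors, and a GDP-bound form that GDP dissociation inhibitors keep in the cytosol. Exchange factors switch it on, GTPase-activating proteins switch it off, and lipid tails added by a geranylgeranyl transferase, with the help of an escort protein, let it sit in membranes. In an absorptive epithelium Rab8a, Rab11a and Rab25 act on routes to the apical surface, Rab5 proteins on early endosomes and Rab7 on late endosomes and lysosomes.

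The arrays measured these genes with probes 60 bases long, and several findings turn on which probe is read. A set of 15 hexamers was more frequent among the 200 highest probes of the whole array than among all tested probes. ACCTCA, for example, stood in 30.0% of the former and 2.68% of the latter, and CACCTC in 27.5% and 1.85%. The set was picked from those same high probes, the Rab33a probe among them. Printed here are 3 called Rab probes that carry such hexamers, in capitals, and, for comparison, 3 called probes that carry none. All are written 5′ to 3′ as the array files give them.
Rab33a (A_42_P522374): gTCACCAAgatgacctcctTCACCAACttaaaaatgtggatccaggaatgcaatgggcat
Rab25 (A_42_P585467): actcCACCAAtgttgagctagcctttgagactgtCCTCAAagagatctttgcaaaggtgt
Rab27b (A_44_P486055): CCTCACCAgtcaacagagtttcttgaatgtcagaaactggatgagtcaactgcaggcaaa
Rab22a (A_44_P121325): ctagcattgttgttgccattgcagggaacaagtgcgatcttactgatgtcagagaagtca
Rab8a (A_44_P431039): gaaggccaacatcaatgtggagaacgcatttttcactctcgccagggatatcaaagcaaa
Rab3d (A_43_P13074): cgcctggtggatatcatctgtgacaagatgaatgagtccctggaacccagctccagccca

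Of the 75 probes, 48 were bright enough to test, 18 of them higher and 4 lower with resveratrol at an adjusted p under 0.05 (limma, Benjamini-Hochberg over all 18896 probes tested). Over the whole array 24.3% of tested probes were called higher and 22.7% lower. The median mean log2 ratio of the tested Rab probes was 0.24, beside -0.02 for all tested probes. By array it was 0.27, 0.27, 0.13 and 0.24 in replicates 1 to 4, beside 0.04, 0.04, -0.06 and 0.01 for all tested probes. Among probes with values on all 4 arrays, a setting chosen after seeing the data, the Rab median was 0.24, beside 0.11 for all such probes. There 16 of 44 Rab probes were higher and 3 lower, against 31.4% and 19.95% of all such probes. All 22 called probes had the same sign on every array with a value, which a test of the mean against 0 favours by design. The changes were mostly small: 12 of the 22 lay within 0.5 of zero, and 3 reached 1. On slide 1, which held replicates 1 and 2, the Rab median was 0.26 and on slide 2 it was 0.16, beside 0.04 and -0.05 for all tested probes. The counts moved with the scaling. Centring each array on its median, without loess, raised the median of all probes from -0.02 to 0.20 and gave 27 Rab probes higher and 0 lower, against 36.3% and 9.75% of all probes. Without replicate 1 the calls fell to 7 and 1 of 47 tested Rab probes, and those of all tested probes to 12.0% and 9.37%. Without replicate 2 the Rab calls were 9 and 1 of 47, against 12.1% and 8.66%. With slide as a random block they were 12 and 2 of 48, against 19.9% and 17.05%. The arrays of slide 2 alone gave 4 and 0 of 46 (Rab33a, 1 probe each of Rab15, Rab27b and Rab8a), against 5.16% and 6.93%. The standard error was also widened by the square root of 2, to stand for a pool as uncertain as the mean of the 4 arrays. Then 6 of 48 Rab probes were higher (Rab33a, Rab15, Rab8a, Rab22a, Rab25 and Rab7, 1 probe each) and 1 of Rab3d lower. Of all tested probes 7.73% were then higher and 3.86% lower. A pool that varied as much as 1 array would need a wider error, which was not tried.

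**Figure D1:**
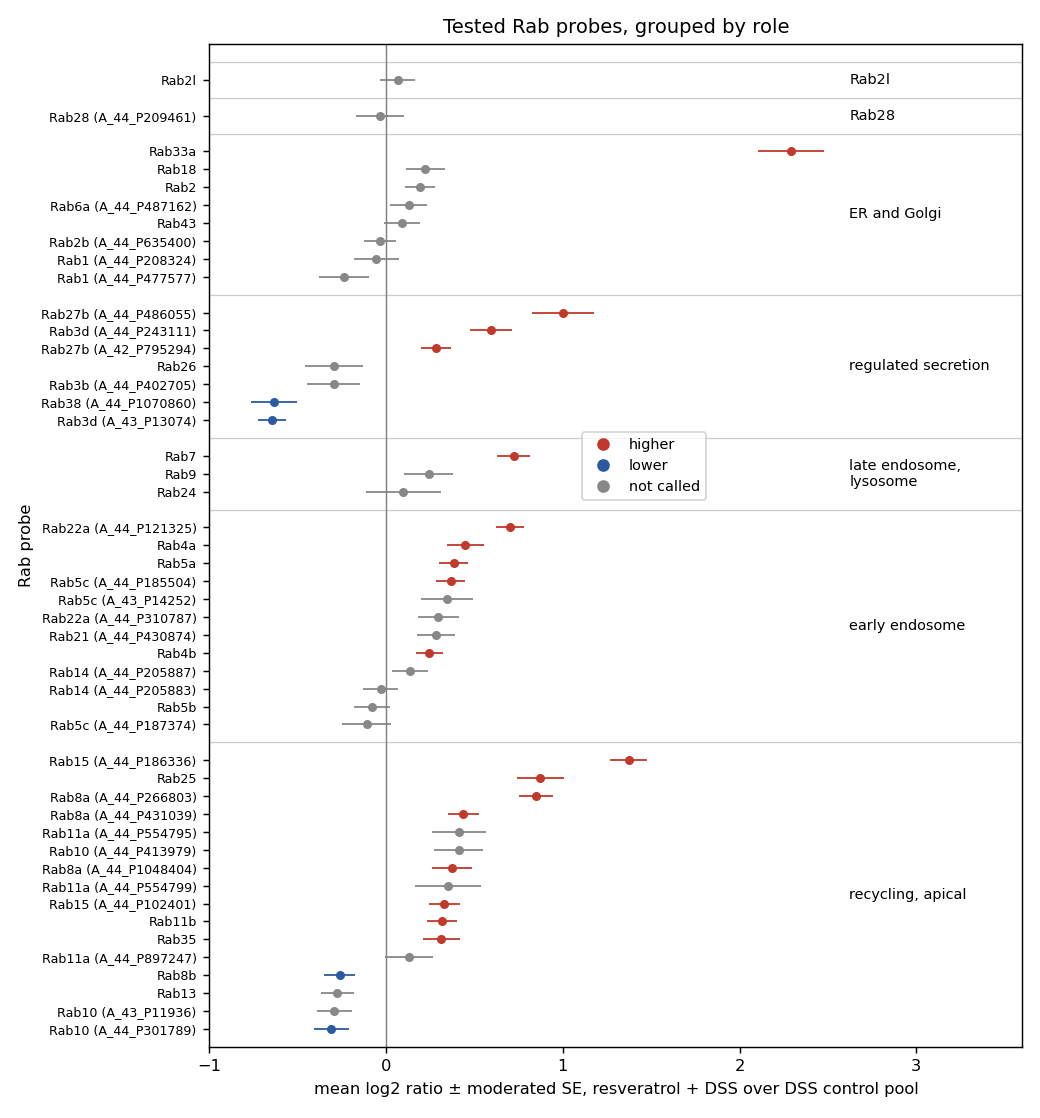
Mean log2 ratio (x axis) of each of the 48 tested Rab probes (y axis), with the moderated standard error as a bar and the call as colour, grouped by the compartment with which each Rab is associated. The recycling group, the largest, has 8 of 16 tested probes called higher and the early endosome group 5 of 12, beside 24.3% of all tested probes. Rab33a is at 2.29, and the next point, Rab15 (A_44_P186336) at 1.37, is a lower bound because its Cy5 signal was saturated.

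Rab genes of recycling, apical and polarized traffic were the group with most tested probes and most calls. All 16 of their probes were tested, and 8 were higher and 2 lower. Of the 8, Rab8a gave 3 and Rab15 gave 2. Over the whole array 24.3% of tested probes were higher and 22.7% lower. Rab25, a Rab11-related protein largely restricted to epithelia, gave log2 ratios of 1.20, 1.00, 0.83 and 0.46 on the 4 arrays. All were positive and the arrays of slide 1 gave the larger values. The mean was 0.87 ± 0.13 (moderated SE, n = 4; limma, adjusted p = 0.00718), a 1.83-fold difference. Its probe maps across an intron, to chromosome 2 between 180607554 and 180607936 (rn3, the build of the array files).

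Rab8a, which carries vesicles to the apical membrane and the primary cilium, was higher by each of its 3 probes. Probe A_44_P266803 gave 0.90, 1.01, 0.88 and 0.59, with a mean of 0.85 ± 0.10 (n = 4, limma, adjusted p = 0.00483), and its Cy3 signal was well above background on 2 of 4 arrays. Probe A_44_P431039, which spans an intron and is printed above, gave 0.46, 0.41, 0.30 and 0.58 (mean 0.44 ± 0.09, adjusted p = 0.0128). The third, A_44_P1048404, gave 0.32, 0.68, 0.11 and 0.37 (mean 0.37 ± 0.11, adjusted p = 0.0387). The gene's probes therefore shared a direction but not a size, and the largest of the 3 means belongs to 1 of the 2 probes that carry a hexamer. A_44_P431039 was no longer called without replicate 1 or 2 (adjusted p = 0.0598 and 0.06), and A_44_P1048404 without replicate 1, 2 or 4 (0.101, 0.161 and 0.0865).

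Rab15, an endocytic Rab best known from neurons, had 2 probes, both higher. Probe A_44_P186336 gave 1.10, 1.32, 1.52 and 1.56. Its Cy5 signal was saturated on all 4 arrays, so it was at least 2.59-fold higher with resveratrol (limma, adjusted p = 0.00399). That probe carries none of the hexamers and is 73.3% G and C. It lies at positions 99406553 to 99406612 of chromosome 6, and the second probe, A_44_P102401, at 99386329 to 99386388. The second gave 0.47, 0.32, 0.15 and 0.38, with a mean of 0.33 ± 0.09 (adjusted p = 0.0294), and lost its call without replicate 1, 2 or 4 (adjusted p = 0.127, 0.11 and 0.0714). On every array the saturated probe was the higher of the pair.

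Rab11a and Rab11b, closely related proteins of the recycling endosome, gave smaller values. The single Rab11b probe had 0.15, 0.35, 0.37 and 0.39 and a mean of 0.32 ± 0.09 (adjusted p = 0.0293). It missed the threshold without any 1 of the 4 arrays (adjusted p between 0.051 and 0.126). None of the 3 Rab11a probes passed: their means were 0.41 ± 0.15, 0.35 ± 0.19 and 0.13 ± 0.13 (adjusted p = 0.0657, 0.154 and 0.44). The first pair, A_44_P554795 and A_44_P554799, were higher on the arrays of slide 1 (0.63 and 0.77 for the former, 0.70 and 0.76 for the latter) than on those of slide 2 (0.35 and -0.09; -0.29 and 0.24). The third, A_44_P897247, ran the other way, with -0.21 and -0.01 on slide 1 and 0.22 and 0.52 on slide 2. Rab35, which returns cargo rapidly from endosomes to the plasma membrane, had a mean of 0.31 ± 0.10 (adjusted p = 0.0496) and lost its call without replicate 1, 2 or 4 (adjusted p = 0.198, 0.161 and 0.0934).

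The lower members of this group were close to the threshold. Rab8b, the paralogue of Rab8a, gave -0.33, -0.39, -0.19 and -0.13, a mean of -0.26 ± 0.09 (adjusted p = 0.0496). Its Cy5 signal was well above background on 1 array only, and it missed the threshold without any 1 of the 4 arrays (adjusted p between 0.059 and 0.221). Rab13, which takes part in tight junction assembly, gave -0.15, -0.21, -0.50 and -0.25 and was not called (mean -0.28 ± 0.09, adjusted p = 0.052).

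Rab10, which acts in basolateral sorting and in the insulin-driven transport of a glucose transporter, was read by 3 probes that did not share a sign. A pair of them overlaps in sequence over 46 bases, all but 2 of them identical. The 2 differing bases are shown here in capitals (C2G and C38G). They are counted from the 5′ end of the first and written from the first to the second.
Rab10 (A_43_P11936): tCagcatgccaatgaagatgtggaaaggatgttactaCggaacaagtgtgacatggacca
Rab10 (A_44_P301789): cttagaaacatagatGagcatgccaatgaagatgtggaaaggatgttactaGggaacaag

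The first of the pair gave -0.45, -0.05, -0.42 and -0.25 and the second -0.39, -0.10, -0.50 and -0.25. The 2 series of values ran close together on every array. In rn3 the first maps to positions 26260119 to 26260178 of chromosome 6. The second maps to another sequence, 6_random, between 444036 and 447755, across an intron. The second was called lower (mean -0.31 ± 0.10, limma, adjusted p = 0.0428) and the first was not (-0.29 ± 0.10, adjusted p = 0.0522). The third probe, A_44_P413979, gave 0.58, 0.75, 0.31 and 0.00, a mean of 0.41 ± 0.14 (adjusted p = 0.0507). No array of the third fell below the values of the other two. The called probe lost its call without any 1 of the 4 arrays (adjusted p between 0.0776 and 0.152). It turned positive, uncalled, under median centring (0.20, adjusted p = 0.347) and with outlier-flagged spots kept (0.11, adjusted p = 0.452).

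**Figure D2:**
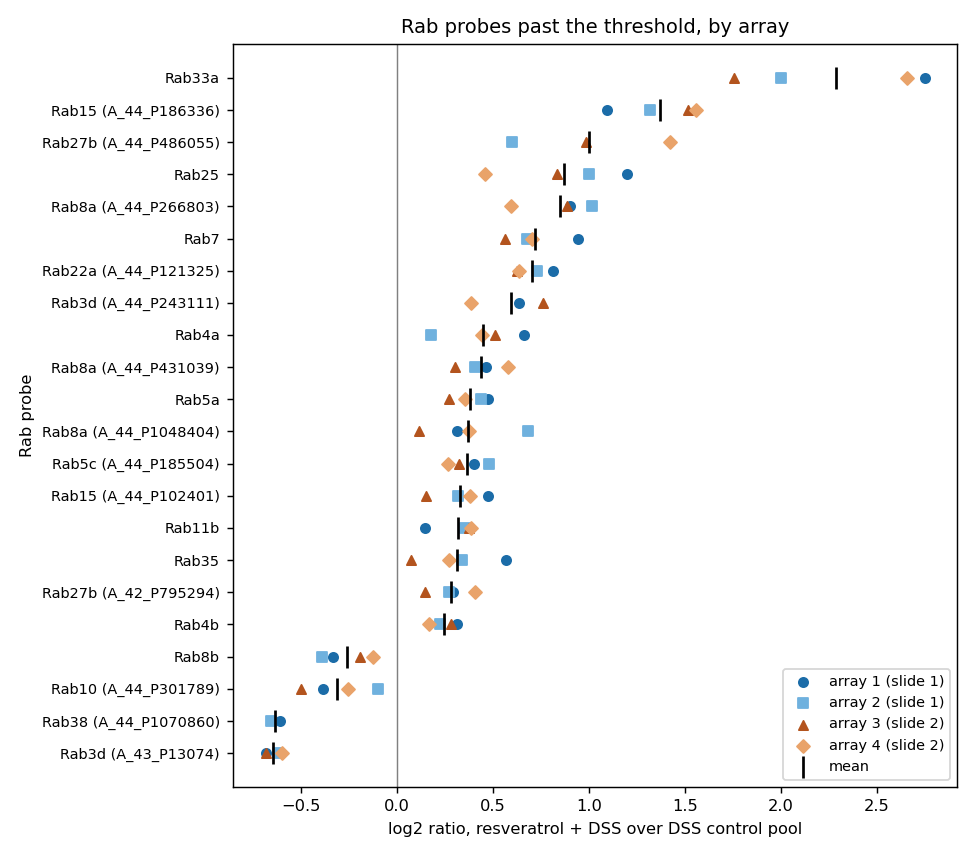
Log2 ratios (x axis) of the 22 called Rab probes (y axis) on each array, with the mean as a vertical bar and the arrays of slide 1 in blue and of slide 2 in orange. Every point of the 18 higher probes lies right of 0 and every point of the 4 lower ones left of it, which the test favours by design. Rab38 has points from slide 1 only.

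Rab genes of early endosomes and endocytosis had 5 of 12 tested probes higher and 0 lower, beside 24.3% and 22.7% of all tested probes. Rab22a, which sorts cargo at early endosomes, led them with 0.81, 0.73, 0.62 and 0.64 by probe A_44_P121325. All 4 arrays were high and close to each other, with a mean of 0.70 ± 0.08 (n = 4; limma, adjusted p = 0.00485). This probe spans an intron (positions 164499974 to 164500556 of chromosome 3, rn3) and carries no hexamer. The second Rab22a probe gave 0.61, 0.24, 0.01 and 0.32, was dimmer (well above background in Cy3 on 1 array and in Cy5 on 2) and was not called (0.30 ± 0.11, adjusted p = 0.0741).

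Rab4a and Rab4b, which mark the fast route from early endosomes back to the surface, were both called. Rab4a gave 0.66, 0.17, 0.51 and 0.44 (mean 0.45 ± 0.10, adjusted p = 0.0198) and lost its call without replicate 1 (adjusted p = 0.0817). Rab4b was at 0.25 ± 0.08 (adjusted p = 0.0454) and lost its call without any 1 array (adjusted p between 0.0665 and 0.182).

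Of the Rab5 proteins, which drive fusion of endocytic vesicles with early endosomes, Rab5a gave 0.47, 0.44, 0.27 and 0.35, a mean of 0.38 ± 0.08 (adjusted p = 0.0159). Rab5c was called by 1 of 3 probes, the intron-spanning A_44_P185504, with 0.40, 0.48, 0.32 and 0.27 (mean 0.37 ± 0.08, adjusted p = 0.018). Both calls were lost without replicate 1 or 2 (adjusted p = 0.0773 and 0.0808 for Rab5a, 0.0791 and 0.0955 for Rab5c). A second Rab5c probe had nearly the same mean but a wider spread, 0.41, 0.83, 0.11 and 0.04 (0.35 ± 0.15, adjusted p = 0.0924), and the third gave 0.19, 0.06, -0.57 and -0.12 (-0.11 ± 0.14, adjusted p = 0.527). Rab5b was at -0.08 ± 0.10 and the 2 probes of Rab14, a Rab of endosomes and the Golgi, were at 0.14 ± 0.10 and -0.03 ± 0.10, none of them called. Rab21, which acts in integrin endocytosis, was at 0.28 ± 0.11 (adjusted p = 0.0675).

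Of the late endosome and lysosome Rabs 3 probes were tested and 1 was called, higher. Of all tested probes 24.3% were higher and 22.7% lower. Rab7, now named Rab7a, the main Rab of late endosomes and of fusion with lysosomes, gave 0.94, 0.68, 0.56 and 0.70. The mean was 0.72 ± 0.09 (limma, adjusted p = 0.00536), a 1.65-fold difference, with Cy3 well above background on 2 arrays and a hexamer in the probe. Rab9, now Rab9a, which acts in retrieval from late endosomes to the Golgi, gave -0.25, 0.42, 0.40 and 0.39 and was not called (0.24 ± 0.14, adjusted p = 0.18). Rab24, linked to autophagy, gave 0.61 and 0.55 on slide 1 but -0.31 and -0.46 on slide 2, so that its mean of 0.10 ± 0.21 (adjusted p = 0.711) describes neither slide.

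Rabs of regulated secretion and lysosome-related organelles had 3 higher and 2 lower among 7 tested probes, beside 24.3% and 22.7% of all tested probes. Rab3d, which sits on secretory granules of exocrine and other cells, had 1 probe called in each direction. Probe A_43_P13074 gave -0.68, -0.62, -0.68 and -0.60, with a mean of -0.65 ± 0.08 (n = 4; limma, adjusted p = 0.00492). Probe A_44_P243111 gave 0.63, 0.76 and 0.39 on replicates 1, 3 and 4 (0.59 ± 0.12, adjusted p = 0.017), its spot on replicate 2 having been flagged as an outlier. The values of the 2 probes do not overlap on any array, and neither carries a hexamer. They lie on chromosome 8, at positions 21013801 to 21013860 and 21012632 to 21012691. The sequence of the first, printed above, can be read through in 1 of its 3 forward frames, and that of the second in 0. The first was not called under median centring (-0.29, adjusted p = 0.159), and the second was not called without replicate 1 (0.57, adjusted p = 0.077).

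Rab27b, which docks secretory granules at the plasma membrane, was higher by both probes. Probe A_44_P486055 gave 0.60, 0.99 and 1.42 on replicates 2, 3 and 4, a mean of 1.00 ± 0.18 (n = 3; adjusted p = 0.0131), with Cy3 well above background on 2 arrays. It begins with the hexamer stretch printed in capitals above. The second, A_42_P795294, without a hexamer, gave 0.29, 0.27, 0.15 and 0.41 (0.28 ± 0.08, adjusted p = 0.0387), all of them below the lowest value of the first. That second call was lost without replicate 1, 2 or 4 (adjusted p = 0.136, 0.144 and 0.0946). Rab38, a Rab of melanosomes and other lysosome-related organelles, was lower at -0.61 and -0.66 on the 2 arrays of slide 1 (-0.63 ± 0.13, n = 2; adjusted p = 0.0257). Its spots on slide 2 were outlier-flagged, and under median centring it was at -0.22 (limma, adjusted p = 0.483). That Rab38 probe, A_44_P1070860, is 73.3% G and C. The gene's other probe, A_44_P369399, stood well above background on 1 array in each channel. It ranged from -0.28 to 0.11 and was not tested. Rab26 and Rab3b, also linked to granules, had means of -0.30 ± 0.17 on 3 arrays and -0.30 ± 0.15, neither called. Rab27a, the close relative of Rab27b in granule docking, was on all 4 arrays too dim to stand well above background in Cy3 or Cy5, and its ratios of -0.05, -0.09, 0.25 and 0.96 were not tested.

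ER and Golgi Rabs had 1 of 8 tested probes higher and 0 lower, beside 24.3% and 22.7% of all tested probes. Rab33a, a Golgi-associated Rab that binds the autophagy protein Atg16L1, gave 2.75, 2.00, 1.76 and 2.65. All 4 arrays were high, and both channels were well above background and unsaturated on each. The mean of 2.29 ± 0.19 (limma, adjusted p = 0.00404), a 4.89-fold difference, was the 9th highest of the 18896 tested probes as measured, with saturated probes at their measured values. It was called under all 18 alternatives that kept its probe. Its only probe, at positions 134998256 to 134998315 of the X chromosome, carries hexamers over 15 of its 60 bases. The remaining ER and Golgi probes lay between -0.24 and 0.22. They belong to Rab1 (now Rab1a), Rab2 (now Rab2a) and Rab2b, which act between the ER and the Golgi, Rab6a and Rab43 of the Golgi, and Rab18 of the ER and lipid droplets. The Rab1 probes, at -0.06 ± 0.13 and -0.24 ± 0.14, each had their lowest value on replicate 3. Rab28, a Rab of cilia, was at -0.03 ± 0.13. Rab2l fits the name rule but its accession now belongs to Ralgdsl2, not to a Rab, and it was at 0.07 ± 0.10; leaving it out leaves 18 higher and 4 lower of 47 tested probes.

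The hexamer set was picked from the 200 highest probes of these same ratios, so an excess of higher calls among its carriers was built in. The counts below only describe it. Of the 48 tested Rab probes 13 carry one, and 8 of these 13 were higher and 0 lower. Of the 35 without one, 10 were higher and 4 lower. Over all tested probes the carriers were 30.4% higher and 19.2% lower, and the others 23.0% higher and 23.6% lower. Refitted on probes without a hexamer, the Rab probes gave 11 higher and 6 lower of 35, against 23.5% and 24.8% of all such probes. The median of the Rab probes without a hexamer was 0.19. The 8 higher carriers are probes of Rab33a, Rab25, Rab27b, Rab7, Rab8a, Rab4a and Rab5a. The part of probe sequence in their values was not tested.

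**Figure D3:**
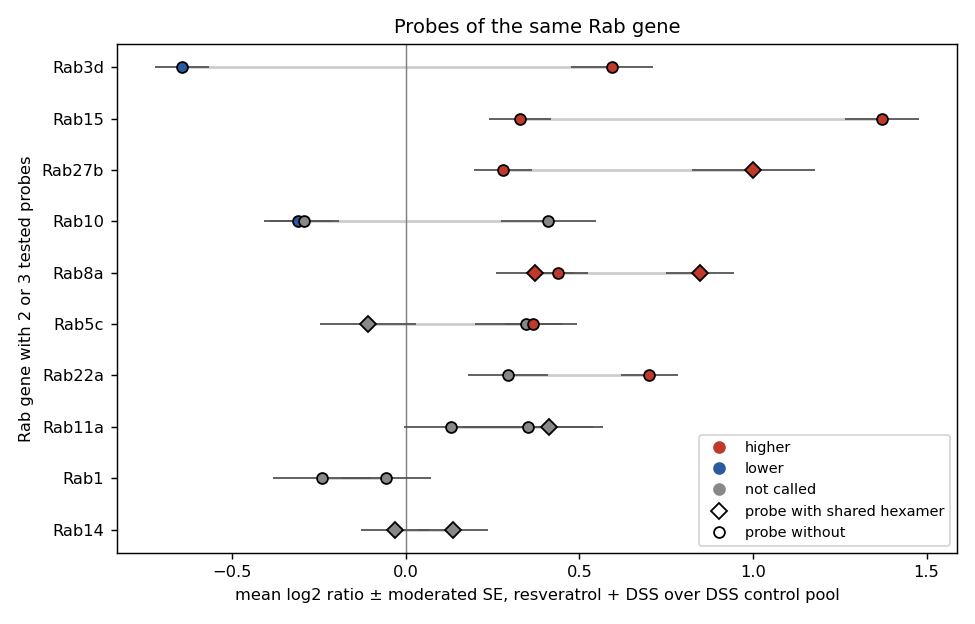
Mean log2 ratio with moderated standard error (x axis) of every tested probe of the 10 Rab genes with 2 or 3 tested probes (y axis), coloured by call, with diamonds for probes that carry a shared hexamer. The probes of Rab3d are called on opposite sides of 0, those of Rab10 straddle it, and those of Rab15 and Rab27b differ in size.

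Of these 10 genes, 3 (Rab8a, Rab15 and Rab27b) had all their tested probes called in 1 direction. Over all 47 Rab genes, 14 had at least 1 probe higher and 4 at least 1 lower, Rab3d being in both counts, and 17 had tested probes but no call. The other 13 had no tested probe: Rab3a, Rab3c, Rab6b, Rab9b, Rab12, Rab23, Rab27a, Rab31, Rab33b, Rab34, Rab39, Rab40b and Rab40c. A gene with more tested probes has more chances of a call, and the share over all genes was not counted in this way. Read by the brightest probe of each gene, 25.7% of 9449 tested named genes were higher and 19.6% lower. Of the 27 untested probes 26 were too dim, and 14 of them stood well above background in neither channel of any of the 4 arrays. The last, a Rab6a probe, was bright but outlier-flagged on all but 1 array, where it gave -0.83. Several untested probes belong to genes with more than 1 probe: 3 each of Rab12, Rab2b and Rab6b, 2 each of Rab31 and Rab40c, and 1 each of Rab3b, Rab21, Rab28 and Rab38. Their log2 ratios ran from -0.87 (Rab31) to 0.73 (Rab40c), at or near background brightness. Some Rab genes bear other names on the array. Rab17, an epithelial Rab, stands there as RGD1562478, gave 0.65, 0.09, 0.15 and 0.10 and was not called (0.25 ± 0.12, adjusted p = 0.128). Rab29 (Rab7l1 on the array, with a hexamer) was higher at 0.42 ± 0.08 (adjusted p = 0.0135). Rab19 (LOC500088) was higher at 0.46 ± 0.10 by 1 probe (adjusted p = 0.0162) and at -0.07 ± 0.14 on 2 arrays by another.

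Genes that act on Rabs were read through the brightest probe of each gene. On that scale 25.7% of 9449 tested named genes were higher and 19.6% lower. Of 8 tested genes for prenylation and recycling of Rabs, 6 were higher and 0 lower, with a median of 0.57 beside 0.02 for all genes. Chm, the escort protein that presents Rabs to the prenyl transferase, gave 2.20, 1.11, 1.70 and 2.00 (mean 1.75 ± 0.18, n = 4; limma, adjusted p = 0.00416), by a probe with a hexamer and with Cy3 well above background on 2 arrays. Yipf5, a Golgi membrane protein of the Yip family, was at 1.36 ± 0.22 on 3 arrays (adjusted p = 0.0105), also with a hexamer. Rabac1, a prenylated Rab acceptor, was at 0.97 ± 0.12 (adjusted p = 0.00519) without one. Named outside the naming rule, after their values were seen, Rabggtb, the catalytic subunit of the transferase, was at 0.75 ± 0.09, and Gdi2, a GDP dissociation inhibitor, at 0.32 ± 0.09 (limma, adjusted p = 0.00492 and 0.0299). The call of Gdi2 was lost without replicate 1 or 2 (adjusted p = 0.122 and 0.144), and a second Gdi2 probe gave -0.18. Rabggta, the other subunit of the transferase, was at -0.42 ± 0.13 on 2 arrays and not called (adjusted p = 0.0624), with a second probe at -0.18.

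Rab exchange factors had 7 of 28 tested genes higher and 6 lower, beside 25.7% and 19.6% of all tested named genes. Among the higher ones were Ccz1, part of the Rab7 exchange complex, at 0.72 ± 0.16, and Dennd4b at 0.70 ± 0.19 on 2 arrays. The probes of both carry a hexamer. On the lower side Dennd2c and Dennd5a were at least 1.72-fold and 1.32-fold lower (limma, adjusted p = 0.00409 and 0.0112), as their Cy5 signals never stood well above background, and Hps4 was at -0.61 ± 0.14 on 3 arrays. GTPase-activating proteins had 2 of 21 higher (Tbc1d23 at 0.67 ± 0.11 and Grtp1 at 0.48 ± 0.12) and 2 lower (Tbc1d10c at -0.75 ± 0.12 and Tbc1d22a at -0.50 ± 0.14 on 2 arrays). Of these lists' named genes, Dennd5a lost its call without replicate 1 or 2 (limma, adjusted p = 0.0571 and 0.0555). Grtp1 lost it without replicate 1 or 2 (0.0575 and 0.069) and Hps4 without 1, 2 or 4 (0.0827, 0.0547 and 0.0656). Dennd4b and Tbc1d22a had values on replicates 1 and 2 only, both on slide 1, and could not be tested without either. Leaving out replicate 4 kept their means. Both calls were then lost (limma, adjusted p = 0.0538 and 0.0519), only through the fit and adjustment over all probes. Under median centring Hps4 and Tbc1d22a were at -0.22 and -0.02 (adjusted p = 0.379 and 0.955).

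Rab effectors had 12 of 47 higher, near the 25.7% of all tested named genes, and 5 lower, beside 19.6%. Kif20a, a mitotic kinesin first described as a Rab6 partner, was at 0.81 ± 0.22 on 2 arrays, Pik3r4, a subunit of the endosomal lipid kinase, at 0.78 ± 0.11, and Myo5b, the motor that binds Rab8a, Rab11a and Rab25, at 0.70 ± 0.09 (adjusted p = 0.00503). Myo5b was also called without each 1 of the 4 arrays. The lower effectors were led by proteins of neuroendocrine exocytosis: Rph3a, which binds Rab3 proteins, was at least 2.43-fold lower (limma, adjusted p = 0.00404), its Cy5 signal never standing well above background, and Rims1 was at -1.14 ± 0.14, with Cy5 above background on 1. Exoc8, a subunit of the exocyst tether, was at -0.58 ± 0.14 on 2 arrays and at -0.11 under median centring (adjusted p = 0.755). Kif20a had values on replicates 1 and 2 only, so leaving out replicate 4 kept its mean. Its adjusted p then moved to 0.0572 (limma) only through the fit and adjustment over all probes. The Kif20a and Exoc8 probes carry a hexamer, and those of Pik3r4 and Myo5b do not.

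SNARE and membrane fusion genes had 4 of 31 higher and 4 lower, beside 25.7% and 19.6% of all tested named genes. The Golgi SNAREs moved in opposite directions, Gosr2 at 0.90 ± 0.08 and Gosr1 at -1.25 ± 0.12 (limma, adjusted p = 0.00409 each). Napg, a factor that helps to disassemble SNARE complexes, and Stxbp3, a syntaxin-binding protein, were at 0.49 ± 0.08 and 0.44 ± 0.09, and neither was called once replicate 2 was left out (adjusted p = 0.0524 and 0.0691). The endosomal SNAREs Stx7 and Vti1a were at -0.91 ± 0.13, with a second Stx7 probe at 0.41, and -0.78 ± 0.19 on 3 arrays. Vti1a lost its call without replicate 1 or 2 (adjusted p = 0.0628 and 0.0574). The Stxbp3 probe carries a hexamer.

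**Figure D4:**
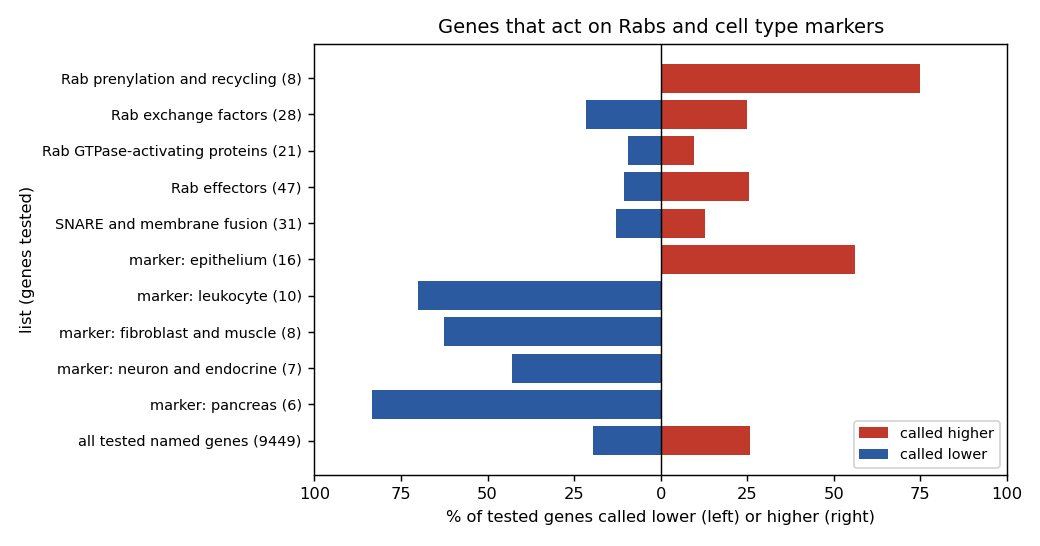
Share of tested genes called higher (right, red) or lower (left, blue) in percent on the x axis, for each list of genes that act with Rabs, for the cell type markers and for all tested named genes (y axis, with the number tested). The prenylation and recycling list (6 of 8 higher) and the epithelial markers (9 of 16 higher) have no lower call. Of the effectors 12 of 47 were higher and 5 lower. Among all tested named genes 25.7% were higher and 19.6% lower.

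Cell type markers differed between the sides as well. Their counts stand beside 25.7% higher and 19.6% lower among all tested named genes. Of 16 tested epithelial markers 9 were higher and 0 lower (median 0.76, means from 0.08 to 1.63). Krt8 was at 0.80 and Cdx1 at 1.12, while Epcam at 0.46, Vil1 at 0.48 and Cdh1 at 0.08 were not called. Of leukocyte markers 7 of 10 were lower, of fibroblast and muscle markers 5 of 8, of neuron and endocrine markers 3 of 7 and of pancreas markers 5 of 6, with medians of -0.58, -1.45, -0.40 and -1.40, and 0 of any of these lists higher. Amy2, pancreatic amylase, was at least 35.7-fold lower (limma, adjusted p = 0.000905), its Cy5 signal never standing well above background. The part of cell type in the Rab and partner values was not tested, and in bulk mucosa fewer cells of a type and less RNA per cell cannot be told apart.

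**Figure D5:**
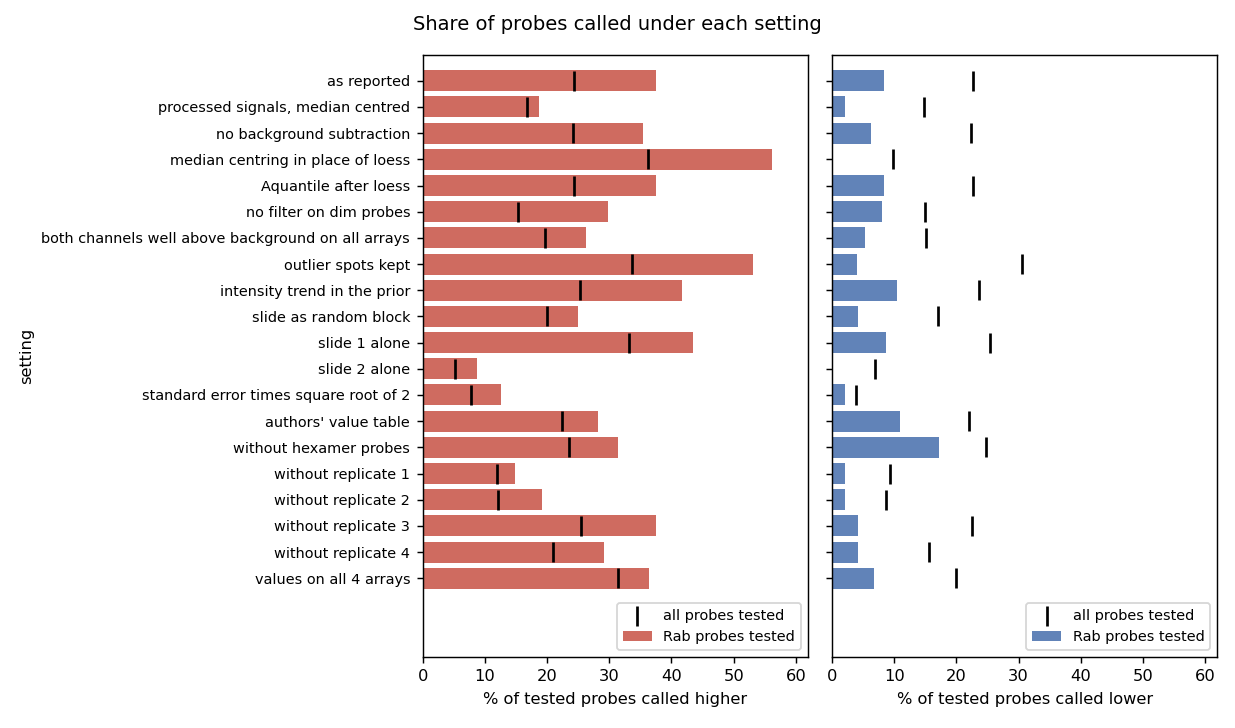
Percent of tested probes called higher (left panel, x axis) or lower (right panel, x axis) under each setting (y axis), as bars for the Rab probes and vertical ticks for all tested probes. In each setting plotted the Rab bar passes the tick on the higher side and stops short of it on the lower side, by amounts that vary: slide 2 alone gives 4 Rab probes higher and 0 lower, and median centring 27 and 0.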

How the data were processed

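RNA of colon mucosa was hybridised on 4 two-colour arrays. Per the file headers, the deposited spot intensities came from Agilent Feature Extraction 9.5.3.1, which flags outlier, saturated and dim spots, with probe positions on rn3. The authors also deposited a table of log2 ratios for 24197 probes; the sources used here do not say how it was centred. Its column medians were -0.01, -0.01, 0.09 and -0.02. Across probes, which are not replicates, its columns correlated with the ratios computed here at 0.876 to 0.940, which sets its Cy5 over Cy3 direction. A correlation does not set its scale, which was taken as log2. The table served as an alternative. From the mean and local background intensities, log2 ratios were computed in limma 3.58.1 (R 4.3.3) with normexp (offset 50) and loess within each array. Control and outlier-flagged spots had no weight, and spots of a probe were averaged. Tested were probes well above background in 1 or both channels on at least 3 arrays, with at least 2 values (18896 of 41012). lmFit and eBayes tested the mean ratio against 0, two-sided, with Benjamini-Hochberg adjustment and a threshold of 0.05; errors are moderated standard errors. Each array pooled 2 rats, and the test leaves out the spread of the control pool. Where a side was saturated or dim on every array, the fold is a bound against the lowest signal well above background. The script was tested on simulated data. Precision is limited by having 4 arrays.

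The Rab members, the lists and the rules were chosen with earlier results of these data known. Values by array were given for the 10 highest called probes and, of at most 10, the 4 called lower, for genes whose probes differed in direction or call, and for Rab25, Rab17, Rab27a, Rab11a, Rab8a, Rab13, Rab7 and Rab5a; for the other gene lists, up to 3 called genes in each direction, some of which are not reported here. Array names matched RefSeq genes by accession (49 probes), symbol (25) or synonym (1). Sequences are those of the array files, and exon or UTR annotation was not used here.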

Additional observations from a re-analysis of the deposited data

Results flagged for a closer look

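Among the 44 Rab probes with values on all 4 arrays, 5 had 1 array far from the other 3, by Dixon's gap over range. Chance alone gives such a result for about 5% of groups. The gap over range was 0.85 for a Rab1 probe, A_44_P477577, at -0.75 on replicate 3 against -0.11 to -0.00 on the others. It was 0.862 for Rab11b, at 0.15 on replicate 1 against 0.35 to 0.39. Rab18, at 0.55 on replicate 4 against 0.09 to 0.14, had 0.893. Rab6a, probe A_44_P487162, at -0.19 on replicate 3 against 0.22 to 0.25, had 0.941. Rab9, at -0.25 on replicate 1 against 0.39 to 0.42, had 0.959. Rab11b was the only one of the 5 that was called.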

How the results depend on the processing

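The main counts were 18 Rab probes higher and 4 lower of 48, and 31 partner genes higher and 17 lower of 135. Percentages in this section are the shares of all tested probes higher and lower under the same setting, 24.3% and 22.7% in the main fit. Partner genes are read by the brightest probe of each gene, so these are not shares of a like set. The like shares in the main fit were 25.7% and 19.6% of tested named genes, and they were not counted under the other settings. For the Rab probes the counts were 9 and 1 of 48 from the scanner's processed signals (16.8% and 14.8%) and 27 and 0 of 48 with median centring (36.3% and 9.75%). They were 10 and 2 of 38 where only probes bright in both channels throughout were kept (19.7% and 15.0%). With outlier spots kept they were 26 and 2 of 49 (33.7% and 30.6%), and with slide as a random block 12 and 2 of 48 (19.9% and 17.05%). Slide 2 alone gave 4 and 0 of 46 (5.16% and 6.93%), and the widened standard error 6 and 1 of 48 (7.73% and 3.86%). The authors' deposited table gave 18 and 7 of 64 (22.3% and 22.05%), and leaving out hexamer probes 11 and 6 of 35 (23.5% and 24.8%). Leaving out 1 array gave 7 to 18 higher and 1 to 2 lower, of 47 or 48 (12.0% to 25.45% and 8.66% to 22.6%). For partner genes the counts were 23 and 8 of 135 from processed signals and 44 and 11 of 135 with median centring. They were 11 and 7 of 92 with that brightness filter and 46 and 28 of 135 with outlier spots kept. Slide 1 alone gave 42 and 30 of 133 (33.2% and 25.45%), slide 2 alone 8 and 7 of 99, and the widened standard error 13 and 6 of 135. Values on all 4 arrays, an alternative chosen after seeing the data, gave 29 and 11 of 98 (31.4% and 19.95%). Leaving out 1 array gave 13 to 32 higher and 6 to 26 lower, of 113 to 135 tested partner genes. Rab10 (A_44_P301789) reversed to 0.20 with median centring and 0.11 with outlier spots kept; the cause was not tested. Of the 22 called Rab probes, 12 lost their call with processed signals, 17 on slide 2 alone and 15 with the widened error; Rab33a, Rab15 (A_44_P186336) and Rab8a (A_44_P266803) kept theirs under every alternative that tested them. No paired analysis was possible because all arrays are of 1 group against a pool.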
